A study of Mus musculus with 9 samples.

Results

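Ribosome biogenesis genes and the subunits of RNA polymerases I and III were examined in 6DT1 cells, a mouse mammary tumour line, with and without knockdown of Resf1. The members were taken by name, as protein-coding genes whose symbols carry the prefixes of nucleolar assembly factors (Nop, Nol, Utp, Rrp and others), small nucleolar ribonucleoprotein (snoRNP) proteins, the RNA exosome (Exosc) or the polymerase subunits (Polr1, Polr3). The rule matched 100 genes of the mouse annotation (GENCODE M21), and 59 of these stood in the deposited table of 5301 genes. The other 41, among them Ncl, Pes1, Nhp2, Ubtf, Polr3a, Polr3c and Polr3g, were not analysed here. The members found comprised 4 polymerase I genes, 5 polymerase III genes, 3 nucleolar scaffold or chaperone genes, 6 snoRNP genes, 15 small subunit and 20 large subunit assembly genes, 4 exosome genes, and Nol4 and Nol4l, which the name pattern took in.

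Ribosomes are assembled mainly in the nucleolus, where RNA polymerase I transcribes the long precursor of the large ribosomal RNAs and RNA polymerase III makes the smallest ribosomal RNA in the nucleoplasm. The precursor is modified by snoRNPs, folded and cut in the small subunit processome and in pre-60S particles, and trimmed by the exosome before the subunits leave the nucleus. Many of these genes are known targets of MYC, whose transgene gave rise to the tumour that 6DT1 came from.

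All cells were 6DT1, derived from an MMTV-Myc tumour and syngeneic to FVB/NJ, and the labels give their genotype as wildtype. The shControl cells carried a scramble hairpin, and the shH4 and shH6 cells each carried a lentiviral shRNA against Resf1 (H4 or H6), with puromycin selection and culture. Each group held 3 libraries of total RNA from dishes plated at the same density. The sources describe no separate transductions for the replicates, so the spread between libraries of a group may not include that between transductions. The hairpin sequences define the groups and are printed for that reason, as the labels give them.

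sh-Resf1 H4: tttcgatttgtaacataggtc
sh-Resf1 H6: aaacaaccaagttacctcagg

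The values are counts that the authors normalized between libraries, with depths over the listed genes estimated at 10.5 to 19.9 M reads a library. Resf1 stood at 1591, 1553 and 1610.0 normalized counts in the shControl libraries, 976, 953 and 1016 in those of shH4, and 1120.0, 1113 and 1130.2 in those of shH6. Its 6 knockdown libraries all lay below the controls, with log2 fold changes of −0.69 ± 0.043 under H4 and −0.50 ± 0.043 under H6 (limma adjusted p = 2.34e-09 and 8.72e-08). Every one of the 5301 listed genes moved the same way in both hairpins and differed from shControl in the mean of both (100% called by limma at an adjusted p under 0.05, 51.2% higher and 48.8% lower), so the table had been selected for change and a call against shControl is expected of any gene in it. Of 20 mammary epithelial markers 4 were listed (Krt8, Krt18, Erbb2 and Erbb3), at a summed 27480 to 29706 normalized counts in shControl and 23237 to 28717 under knockdown. Krt8 and Krt18, luminal keratins, had log2 fold changes of −0.25 and −0.32 in shH4 (limma adjusted p = 0.000118 and 1.27e-05), had −0.079 and −0.069 in shH6 (limma adjusted p = 0.0953 and 0.139), and differed between hairpins (limma adjusted p = 0.0232 and 0.00209). Erbb3 changed by −1.13 and −1.26, and Erbb2 rose by 0.35 and 0.33. Of 19 markers of other cell types 4 were listed (Cd68, Cdh5, Pecam1 and Pdgfra), at a summed 736 to 769 in shControl and 350.4 to 607 under knockdown, and they did not move together. Cd68, a macrophage marker, carried the lower sum, with log2 fold changes of −1.50 under H4 and −1.57 under H6. The endothelial markers Cdh5 and Pecam1 were low in shControl, at means of 21.4 and 4.76 normalized counts, and rose in shH4 by 2.91 and 2.31 (limma adjusted p = 1.51e-08 and 4.17e-05), with changes of 0.050 and 0.54 in shH6 (limma adjusted p = 0.818 and 0.158). The fibroblast marker Pdgfra rose by 0.74 and 0.80. The other markers of both lists were not analysed here, and the part of other cells in the values below was not tested.

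Most of the members rose under both hairpins, and by similar small amounts. In shH4, 48 of 59 were called higher and 8 lower, where 49.2% of all listed genes were called higher and 46.5% lower. In shH6, 48 were called higher and 9 lower, against 49.1% and 46.9% of all listed genes. By the fitted mean of both hairpins 49 members (83.1%) were higher and 10 lower, against 51.2% of all listed genes higher. Since 95.7% of listed genes were called in shH4 and 96.1% in shH6, the 56 and 57 members called in all lay near the background, and the directions are what the counts describe. All 6 knockdown libraries lay above all 3 controls for 43 members (43.5% of all listed genes) and below them for 9 (42.8% of all listed genes), and the groups overlapped for 7.

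The median log2 fold change over the members was 0.23 in shH4 and 0.22 in shH6, where 0.096 and 0.088 were the medians of all listed genes. Those medians average rises and falls of a table selected for change. Regardless of sign, the median change was 0.244 for members and 0.266 for all listed genes in shH4. In shH6 it was 0.239 and 0.270, so the members' changes were not larger than those of the listed genes. As a fold the median member stood 1.17 times shControl in each. Of the 59, 34 changed by less than 1.2-fold in shH4 and 37 in shH6. Rrp12 above and Polr3gl below were the members past 1.5-fold, and none passed 2-fold. Of all 5301 listed genes, 2608 in shH4 and 2547 in shH6 changed by less than 1.2-fold. Past 1.5-fold were 664 and 694 of them, and past 2-fold 206 and 212. Taken library by library, the median member lay 0.27, 0.22 and 0.21 above the shControl mean in shH4 and 0.21, 0.23 and 0.23 above it in shH6 (log2), while the 3 control libraries lay between −0.0063 and 0.0026. The summed values of the members made up 1.00 to 1.02% of each control column, 1.10 to 1.14% of each shH4 column and 1.12% of each shH6 column. The cytosolic ribosomal protein genes, which encode the proteins these factors assemble, went the other way in the same columns. Of the 59 listed, 55 were lower, with a median of −0.16 under H4 and −0.20 under H6. In RNA from whole dishes, fewer cells that express a gene and less of its RNA per cell cannot be told apart.

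**Figure D1:**
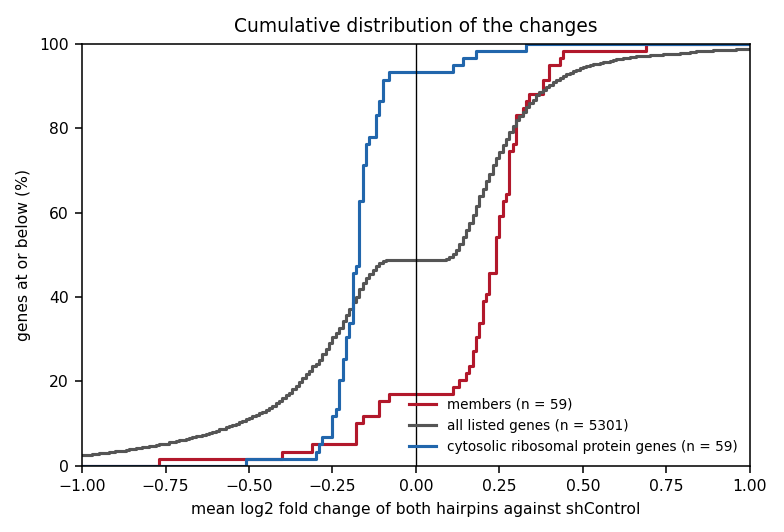
Cumulative share of genes (%) at or below each mean log2 fold change of both hairpins against shControl, for the 59 members, all 5301 listed genes and the 59 listed cytosolic ribosomal protein genes; changes beyond −1 and 1 are not drawn. The flat stretch of the all-gene curve shows that no listed gene lay close to 0. The member curve lies to its right up to a change of 0.29, with 83.1% of members above 0. From 0.40 on it lies to the left, with 94.9% of members and 90.3% of all listed genes at or below 0.40.

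**Figure D2:**
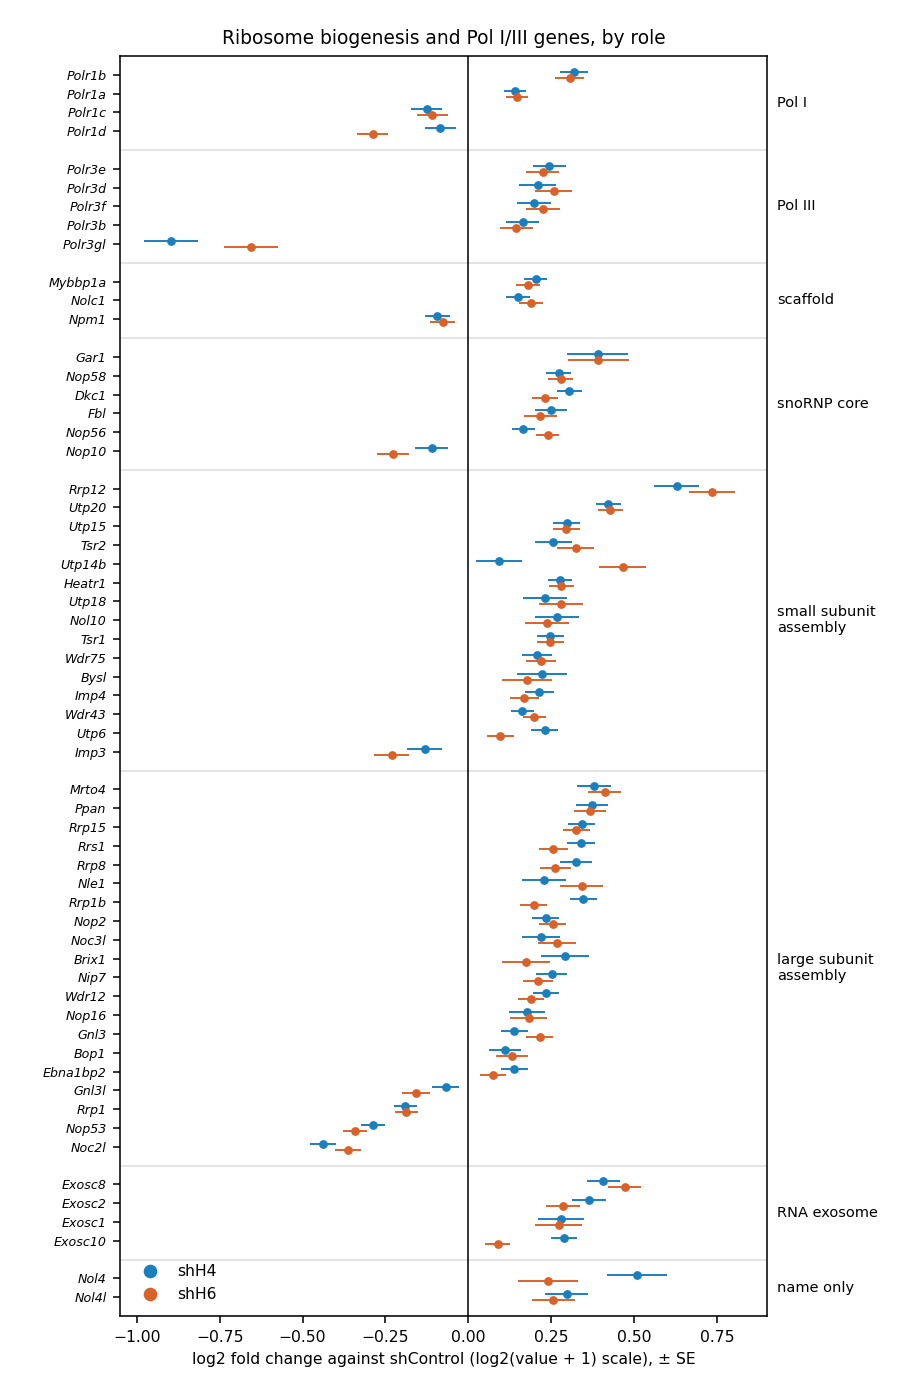
Log2 fold change against shControl of each member in shH4 (blue) and shH6 (orange), with the standard error from limma as bars, grouped by role. Points of both hairpins sit close together for most genes, 10 genes lie left of 0, and Utp14b, Nol4, Polr3gl, Polr1d and Exosc10 show the widest gaps between hairpins, of which those of Nol4 and Polr3gl were not called.

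Of the polymerase I genes, both large subunits rose and both subunits that polymerase I shares with polymerase III were lower, with a call for each in shH6. Polr1b, the second largest subunit of the enzyme, stood at 1755, 1985 and 1921 normalized counts in the shControl libraries, 2329, 2375 and 2347 in those of shH4, and 2326, 2341 and 2318 in those of shH6. Every knockdown library lay above every control, with log2 fold changes of 0.32 ± 0.043 under H4 and 0.31 ± 0.043 under H6 (limma adjusted p = 9.25e-06 and 1.31e-05). The largest subunit, Polr1a, rose less, from 6459.5 ± 155 (SD, n = 3) to 7121 ± 91 and 7145 ± 148, or 0.14 ± 0.033 under H4 and 0.15 ± 0.033 under H6 (limma adjusted p = 0.00101 and 0.00076). The groups did not overlap for it either.

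Polr1d, the smaller of the shared subunits, stood at 2969, 2704 and 2823 normalized counts in the shControl libraries, 2674, 2687 and 2644 in those of shH4, and 2413, 2405 and 2139.8 in those of shH6. The shH6 libraries lay lowest, and the shH4 libraries lay just under the controls. Its log2 fold change was −0.085 ± 0.047 under H4 and −0.29 ± 0.047 under H6 (limma adjusted p = 0.0935 and 5.35e-05), so it was called in shH6 and not in shH4, and the hairpins differed by −0.20 ± 0.047 (limma adjusted p = 0.012). Without shH6 replicate 3 that difference was −0.15 with an adjusted p of 0.0389 by limma, and it was not called when the variance was fitted without a trend on the mean level (limma adjusted p = 0.0723). The shH4 value was called too in 6 of the alternative fits: without shControl replicate 2, without shH6 replicate 3, with upper quartile or median ratio scaling over the listed genes, with library weights, and with only shH4 and shControl in the fit. Polr1c, the other shared subunit, was 1463 ± 60.3 in shControl, 1340.5 ± 63.5 under H4 and 1355 ± 22.3 under H6 (SD, n = 3). The shH4 and control libraries overlapped, and the log2 fold changes of −0.13 ± 0.047 under H4 and −0.11 ± 0.047 under H6 (limma adjusted p = 0.0176 and 0.0336) were the weakest calls of the group. In shH4 the call was lost without shControl replicate 1, shH4 replicate 1 or shH4 replicate 2, and in shH6 without shControl replicate 1 or 2 or shH6 replicate 1 or 3. Scaling by the column total also ended both calls, at −0.10 and −0.068 (limma adjusted p = 0.0539 and 0.17).

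Among proteins that work with polymerase I and lie outside the name rule, 5 of 10 were listed, of which 4 rose in each hairpin and 1 fell. Lyar rose most, by 0.33 ± 0.057 under H4 and 0.35 ± 0.057 under H6 (limma adjusted p = 7.56e-05 and 4.15e-05). Rrn3, the initiation factor that recruits the polymerase to the ribosomal DNA promoter, rose from 2502 ± 68.5 to 2779.9 ± 126 and 2779 ± 57.6 (SD, n = 3), and Znrd1, a small subunit of the polymerase itself, rose by 0.29 and 0.22 in shH4 and shH6. Taf1d, of the promoter selectivity complex, changed by −0.12 ± 0.033 under H4 and −0.085 ± 0.033 under H6 (limma adjusted p = 0.0039 and 0.0213).

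Polymerase III showed 4 subunits up and 1 down. Polr3gl had the greatest fall of all members, with 397, 373 and 434 normalized counts in the shControl libraries, 219, 219.8 and 206 in those of shH4, and 273, 251 and 239 in those of shH6. Its 6 knockdown libraries lay far under the controls, and the shH4 libraries under the shH6 libraries. The log2 fold change was −0.90 ± 0.082 under H4 and −0.66 ± 0.082 under H6 (limma adjusted p = 1.35e-07 and 3.52e-06), and the difference between hairpins of 0.24 ± 0.082 did not pass the threshold (limma adjusted p = 0.0829). Polr3gl encodes the form of subunit RPC7 found in most differentiated cells. Its paralog Polr3g, the form typical of stem and tumour cells, was not analysed here, so the balance of the pair was not measured.

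The other 4 listed subunits rose by like amounts. Polr3e, of the initiation and termination subcomplex, was 891 ± 18.6 in shControl, 1056 ± 40.3 under H4 and 1042 ± 43.2 under H6 (SD, n = 3). Polr3d, its partner in that subcomplex, rose by 0.21 and 0.26 on the log2 scale, and Polr3f, a subunit that helps open the promoter, by 0.20 and 0.22. Polr3b, the second largest subunit, changed by 0.16 ± 0.05 under H4 and 0.14 ± 0.05 under H6 (limma adjusted p = 0.00572 and 0.0119). Its groups overlapped by 1 library, shH6 replicate 3 at 1289 against shControl replicate 1 at 1291. With upper quartile scaling the calls were lost in both hairpins, at 0.10 and 0.092 (limma adjusted p = 0.06 and 0.0873), and the shH6 call also without shControl replicate 3 or shH6 replicate 2. Of 20 polymerase III partners outside the rule, 8 were listed and all 8 rose in each hairpin, with medians of 0.23 and 0.24. They were 4 subunits of TFIIIC (Gtf3c2, Gtf3c4, Gtf3c5 and Gtf3c6), the initiation factor Gtf3a, the subunit Crcp, Larp7, and Maf1, a repressor of the enzyme, at 0.19 and 0.11. No subunit shared by all the nuclear polymerases was listed, of 5 looked for.

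Among the abundant nucleolar proteins, Mybbp1a and Nolc1 rose, and Npm1 was slightly lower. Mybbp1a, a nucleolar protein tied to ribosomal DNA transcription and p53, went from 8833 ± 284 to 10161 ± 135 and 10004 ± 359 (SD, n = 3). Its log2 fold change was 0.20 ± 0.036 under H4 and 0.18 ± 0.036 under H6 (limma adjusted p = 0.000108 and 0.000285). Nolc1, a chaperone of snoRNPs, rose by 0.15 ± 0.037 under H4 and 0.19 ± 0.037 under H6 (limma adjusted p = 0.00152 and 0.000248). Npm1, which encodes nucleophosmin, was the most abundant member per kilobase of its longest transcript, at 15044 normalized counts per kilobase in shControl, and stood at 24936, 24699 and 24065 normalized counts in the shControl libraries, 23981, 22522 and 22558 in those of shH4, and 23740.5, 23855 and 22282 in those of shH6. The knockdown libraries all lay under the controls, by a small part of the level. The change was −0.094 ± 0.038 under H4 and −0.077 ± 0.038 under H6 (limma adjusted p = 0.0265 and 0.0597), a call in shH4 and not in shH6, which was lost without shControl replicate 1 or 2 or shH4 replicate 2 or 3, with column total scaling and without the variance trend. Npm1 was called lower in shH6 without shH6 replicate 2 and with upper quartile or median ratio scaling.

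The snoRNP core proteins rose in 5 of 6 cases. Box C/D particles carry out ribose methylation of ribosomal RNA and H/ACA particles make pseudouridine. In the box C/D particle, Fbl, the methyltransferase, stood at 1568, 1709.7 and 1570.2 normalized counts in the shControl libraries, 1797, 1952 and 2009 in those of shH4, and 1904, 1829.7 and 1899 in those of shH6. All knockdown values lay above all controls, and the log2 fold change was 0.25 ± 0.048 under H4 and 0.22 ± 0.048 under H6 (limma adjusted p = 0.000258 and 0.000686). The scaffold proteins Nop58 and Nop56 rose by 0.27 and 0.28 and by 0.17 and 0.24 in shH4 and shH6, with no overlap with shControl.

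In the H/ACA particle, Dkc1, the pseudouridine synthase, rose from 2946 ± 50.8 to 3641 ± 142 and 3459 ± 108 (SD, n = 3), or by 0.30 ± 0.038 under H4 and 0.23 ± 0.038 under H6 (limma adjusted p = 4.31e-06 and 5.93e-05). Gar1, which binds the synthase, had the highest estimate of the class with a wide spread, at 394, 509 and 495 normalized counts in the shControl libraries, 606, 588 and 628 in those of shH4, and 602, 542 and 687 in those of shH6. Even its lowest knockdown library lay above the highest control, and the log2 fold change was 0.39 ± 0.092 under H4 and 0.39 ± 0.092 under H6 (limma adjusted p = 0.00114 and 0.00105). Nop10, the smallest protein of the particle, was lower. Its shControl values ran from 1489 to 1568, those under H4 from 1381 to 1443 and those under H6 from 1202 to 1351. The change was −0.11 ± 0.049 under H4 and −0.23 ± 0.049 under H6 (limma adjusted p = 0.0392 and 0.00054), and the shH4 call was lost without shControl replicate 1 or 2 or shH4 replicate 2 or 3, with column total scaling and without the variance trend. Nhp2, the remaining core protein of the particle, was not analysed here.

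Small subunit assembly held the strongest rise of all members. Rrp12, an export factor of pre-ribosomes, stood at 549, 588 and 527 normalized counts in the shControl libraries, 902, 915 and 763 in those of shH4, and 891, 909 and 970.2 in those of shH6. The lowest knockdown library, shH4 replicate 3, was still well above the highest control. Its log2 fold change was 0.63 ± 0.069 under H4 and 0.73 ± 0.069 under H6 (limma adjusted p = 9.81e-07 and 1.9e-07). Utp20, a large helical repeat protein of the processome, was next in the class by the mean of both hairpins, at 2909.6, 2955 and 2843 normalized counts in the shControl libraries, 4062, 3753 and 3858 in those of shH4, and 3953, 3929.5 and 3835 in those of shH6. Its replicates were tight and the groups far apart, with changes of 0.42 ± 0.037 under H4 and 0.43 ± 0.037 under H6 (limma adjusted p = 9.72e-08 and 8.72e-08). Utp15, of the UtpA complex that binds the nascent precursor, rose by 0.30 ± 0.041 under H4 and 0.30 ± 0.041 under H6 (limma adjusted p = 1.01e-05 and 9.73e-06).

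Of the 15 genes of the class, 13 were called higher in shH4 and 14 in shH6, and Imp3 lower in both. Other UtpA genes behaved alike, with Heatr1 at 0.28 and 0.28, Wdr75 at 0.21 and 0.22 and Wdr43 at 0.16 and 0.20 in shH4 and shH6. In the UtpB complex, Utp18 changed by 0.23 and 0.28 and Utp6 by 0.23 and 0.10, the shH6 call for Utp6 being lost without shControl replicate 1 or 3 or shH6 replicate 1 and with upper quartile or median ratio scaling. Imp4 and Imp3, which sit on the same processome protein, went opposite ways. Imp4 rose by 0.21 ± 0.043 under H4 and 0.17 ± 0.043 under H6 (limma adjusted p = 0.000362 and 0.00196), whereas Imp3 went from 1486 ± 79.6 to 1357 ± 50.5 and 1267 ± 74.5 (SD, n = 3), a change of −0.13 ± 0.053 under H4 and −0.23 ± 0.053 under H6 (limma adjusted p = 0.0261 and 0.000842). The shH4 call for Imp3 was lost without shControl replicate 1 or shH4 replicate 1, with column total scaling and without the variance trend. The rest, Tsr1, Tsr2, Bysl and Nol10, rose by 0.22 to 0.27 in shH4 and by 0.18 to 0.32 in shH6, and both calls for Bysl were lost without shControl replicate 1 and with upper quartile scaling. Its shH4 call was also lost without shH4 replicate 2, and its shH6 call without shH6 replicate 2 or 3, with median ratio scaling, with library weights and without the variance trend.

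Utp14b was the member on which the hairpins differed most. It stood at 394, 376 and 411 normalized counts in the shControl libraries, 392, 413 and 457 in those of shH4, and 521, 548 and 561 in those of shH6. The shH6 libraries lay above all others, while shH4 and shControl overlapped. The change was 0.093 ± 0.07 under H4 and 0.46 ± 0.07 under H6 (limma adjusted p = 0.2 and 2.29e-05), and shH6 exceeded shH4 by 0.37 ± 0.07 (limma adjusted p = 0.003). Utp14b is a retrotransposed copy of the processome gene Utp14a and lies on the same strand as Acsl3, which it overlaps. Reads of the shared stretch cannot be told apart between the genes, and Acsl3 was not analysed here. Per kilobase of its longest transcript it was the least abundant member, at 53.3 normalized counts in shControl.

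Of the 20 large subunit assembly genes, 16 were called higher in shH4 and 15 in shH6, and 3 and 4 lower. Mrto4, which holds the place of the ribosomal stalk proteins, rose most, with 809, 813 and 779.9 normalized counts in the shControl libraries, 1095, 1044 and 987 in those of shH4, and 1095, 1057 and 1043 in those of shH6. No knockdown library came near the controls, and the change was 0.38 ± 0.05 under H4 and 0.41 ± 0.05 under H6 (limma adjusted p = 7.07e-06 and 2.85e-06). Ppan and Rrp15, factors of early pre-60S particles, rose by 0.37 ± 0.048 under H4 and 0.37 ± 0.048 under H6 (limma adjusted p = 5.6e-06 and 6.17e-06) and by 0.34 ± 0.04 under H4 and 0.33 ± 0.04 under H6 (limma adjusted p = 2.3e-06 and 3.59e-06). Among the PeBoW genes Bop1 and Wdr12, which act with Pes1 in pre-60S maturation, Wdr12 changed by 0.23 and 0.19 and Bop1 by 0.11 and 0.13 in shH4 and shH6. The shH4 call for Bop1 was lost without shControl replicate 2 or 3 or shH4 replicate 1 or 2 and without the variance trend, its shH6 call without shControl replicate 3, and both with upper quartile or median ratio scaling.

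The RNA methyltransferases of the class, Nop2 and Rrp8, rose by 0.23 and 0.25 and by 0.32 and 0.26. Rrs1, which brings the ribonucleoprotein of the smallest ribosomal RNA into pre-60S particles, rose from 1144 ± 34 to 1448 ± 18.9 and 1367 ± 36.2 (SD, n = 3). The nucleolar GTPase Gnl3, also called nucleostemin, rose by 0.14 ± 0.041 under H4 and 0.21 ± 0.041 under H6 (limma adjusted p = 0.00515 and 0.000207). Brix1, Nip7, Nle1, Noc3l and Nop16 rose by 0.18 to 0.29 in shH4 and by 0.17 to 0.34 in shH6. The shH6 call for Brix1 was lost without shControl replicate 1 or 3 or shH6 replicate 1 or 3, with upper quartile or median ratio scaling and without the variance trend. Ebna1bp2 was called in shH4 and not in shH6, at 0.14 and 0.075. It was called in both without shH6 replicate 3, with column total scaling or with library weights, and in neither with upper quartile scaling, which also ended the shH4 calls of Gnl3 and Nop16.

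The 4 large subunit genes that were lower held the strongest fall after Polr3gl of all members. Noc2l, a partner of pre-60S assembly that also binds p53 and inhibits histone acetylation, stood at 2770.2, 2727 and 2731 normalized counts in the shControl libraries, 1928, 2102 and 2049 in those of shH4, and 2128, 2120.0 and 2147 in those of shH6. The controls lay within a narrow band and every knockdown library well beneath it, with changes of −0.44 ± 0.039 under H4 and −0.36 ± 0.039 under H6 (limma adjusted p = 1.08e-07 and 7.24e-07). Its relative Noc3l rose by 0.22 and 0.27. Nop53, which brings the exosome to pre-60S particles, stood at 3605, 3428 and 3461 normalized counts in the shControl libraries, 2843, 2858 and 2887 in those of shH4, and 2795, 2801 and 2681 in those of shH6. The groups were clearly apart, and the change was −0.29 ± 0.036 under H4 and −0.34 ± 0.036 under H6 (limma adjusted p = 3.65e-06 and 5.76e-07).

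The paralogs Rrp1 and Rrp1b went opposite ways. Rrp1 was 5891 ± 107 in shControl, 5165 ± 136 under H4 and 5175 ± 113 under H6 (SD, n = 3), a change of −0.19 ± 0.034 under H4 and −0.19 ± 0.034 under H6 (limma adjusted p = 0.000123 and 0.000134). Rrp1b, the copy that also acts in the nucleoplasm and has been studied as a metastasis modifier, stood at 1652, 1637 and 1722 normalized counts in the shControl libraries, 2123, 2173 and 2076 in those of shH4, and 1902, 1861 and 1981 in those of shH6. All knockdown libraries were above the controls, and those of shH4 above those of shH6. It rose by 0.35 ± 0.04 under H4 and 0.20 ± 0.04 under H6 (limma adjusted p = 1.98e-06 and 0.000371), and the hairpins differed by −0.15 ± 0.04 (limma adjusted p = 0.0283). That call was lost in 6 of the alternative fits, without shH4 replicate 1 or 2 or shH6 replicate 1 or 2, with column total scaling and without the trend on the mean, with adjusted p from 0.00535 to 0.109 over all limma fits. The GTPase pair split likewise, Gnl3 being higher and Gnl3l at 4125 ± 90.7 in shControl, 3935 ± 98.6 under H4 and 3699.9 ± 209 under H6, or −0.068 ± 0.041 under H4 and −0.16 ± 0.041 under H6 (limma adjusted p = 0.118 and 0.00214). Gnl3l was called in shH4 too with upper quartile or median ratio scaling and with library weights.

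**Figure D3:**
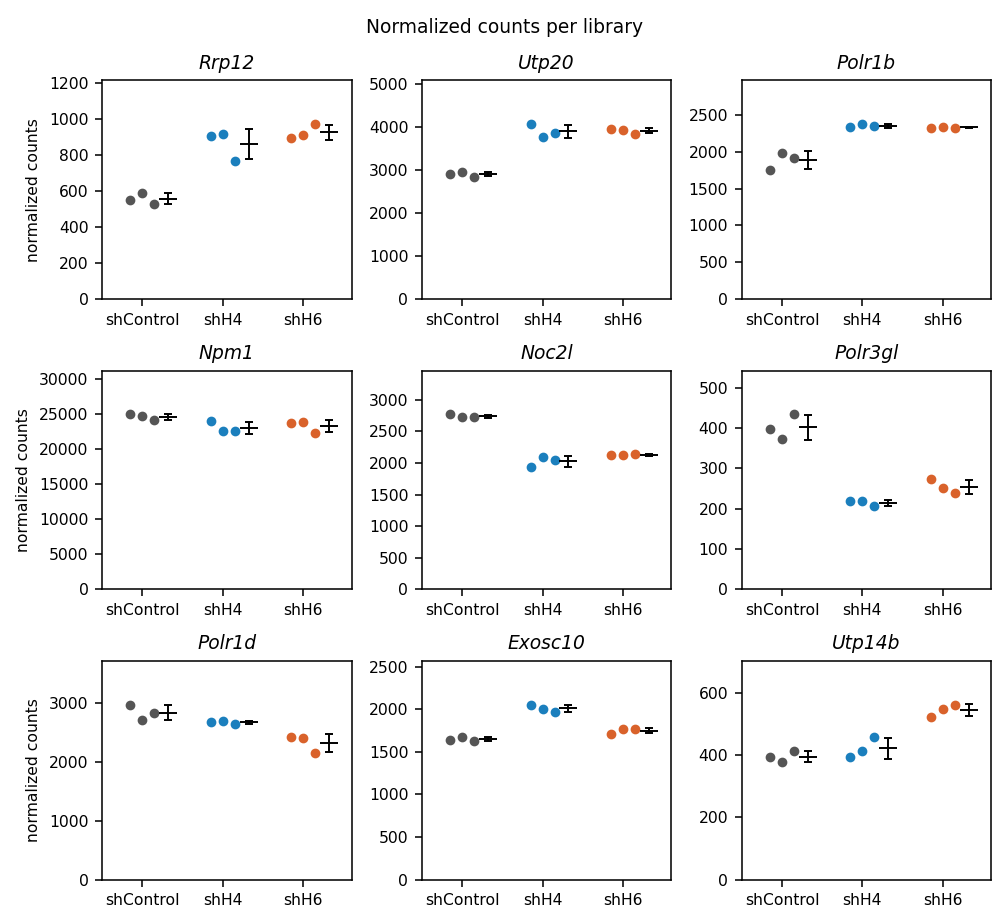
Normalized counts (linear axes from 0) in each library for 9 members, 3 points per group, with the mean and SD beside them in black. Rrp12, Utp20 and Polr1b sit higher in both hairpins, Npm1 slightly lower, Noc2l and Polr3gl lower, and Polr1d, Exosc10 and Utp14b differ between shH4 and shH6.

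All 4 listed exosome genes rose in both hairpins. Exosc8, a subunit of the ring, stood at 1033, 1015 and 926 normalized counts in the shControl libraries, 1374, 1316 and 1254 in those of shH4, and 1378, 1391 and 1349 in those of shH6. Its knockdown libraries all lay above the controls, with changes of 0.41 ± 0.051 under H4 and 0.47 ± 0.051 under H6 (limma adjusted p = 3.85e-06 and 7.74e-07). The cap subunits Exosc2 and Exosc1 rose by 0.36 and 0.28 and by 0.28 and 0.27 in shH4 and shH6. Exosc10, the nuclear exoribonuclease of the complex, stood at 1641, 1669 and 1624 normalized counts in the shControl libraries, 2054, 2003 and 1968 in those of shH4, and 1714, 1768 and 1765 in those of shH6. The shH6 libraries lay between the controls and the shH4 libraries, without overlap. Its rise was 0.29 ± 0.038 under H4 and 0.088 ± 0.038 under H6 (limma adjusted p = 7.21e-06 and 0.036), and the hairpins differed by −0.20 ± 0.038 (limma adjusted p = 0.00344). The difference was called in each alternative fit, but the shH6 rise itself was lost without shControl replicate 1 or 3 or shH6 replicate 2 or 3, and with the values scaled by the upper quartile or the median ratio over the listed genes. Of 18 cofactors of the exosome and of RNase MRP outside the rule, 5 were listed. The catalytic subunit Dis3 rose by 0.37 and 0.41, Pop5, Rpp30 and the helicase Mtrex rose, and Zcchc7, which guides the exosome to its substrates, was lower, at −0.21 and −0.16.

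Further assembly factors, which the name rule does not catch, were looked up as a list of 78, of which 33 were listed. In each hairpin 31 rose and 1 fell, with medians of 0.21 and 0.22 in shH4 and shH6. By the mean of both hairpins Rbm19 and the helicase Ddx31 rose most, by 0.49 and 0.46 and by 0.50 and 0.44. Nat10, an acetyltransferase of ribosomal RNA, rose by 0.33 and 0.35, and Mdn1, the giant ATPase that strips factors from pre-60S particles, by 0.31 and 0.42. Eif6, which keeps the subunits apart, rose by 0.13 ± 0.036 under H4 and 0.30 ± 0.036 under H6 (limma adjusted p = 0.0036 and 2.2e-06) and was the list's 1 gene to differ between hairpins (limma adjusted p = 0.00581). The kinase Riok3 was lower, at −0.09 and −0.16. These lists are described by their counts alone, beside the 49.2% and 49.1% of all listed genes called higher in shH4 and shH6.

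Nol4 and Nol4l share the name but no established part in ribosome assembly. Nol4 stood at 277, 229 and 290.2 normalized counts in the shControl libraries, 379, 348 and 403 in those of shH4, and 319.8, 321 and 296 in those of shH6, the shH4 libraries above the shH6 libraries and both above shControl. It changed by 0.51 ± 0.091 under H4 and 0.24 ± 0.091 under H6 (limma adjusted p = 0.000115 and 0.0194), and the shH6 call was lost without shControl replicate 2 or shH6 replicate 1 or 2 and with upper quartile scaling. Nol4l rose by 0.30 and 0.26. Without this pair, 46 of the 57 remaining members were called higher in each hairpin.

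**Figure D4:**
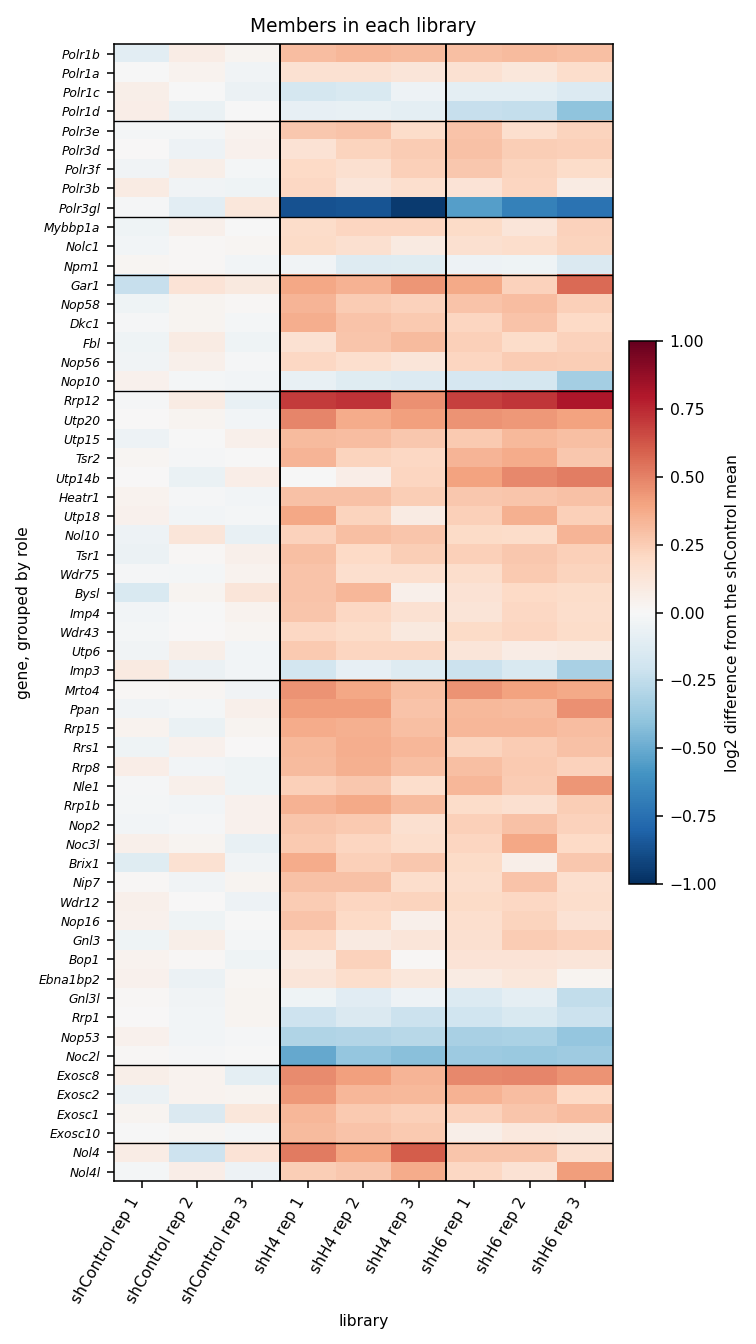
Log2 difference of each member (rows, grouped by role, in the order of the fold change plot) from its shControl mean, in each of the 9 libraries (columns). Red rows dominate in all 6 knockdown columns, and in the rightmost column, shH6 replicate 3, several of the blue rows are darkest.

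Taken directly, shH6 and shH4 differed for a share of members near that of all listed genes. Since every listed gene moved the same way in both hairpins, genes on which the hairpins went opposite ways are not among them. By limma 4 of 59 were called, 1 higher in shH6 (Utp14b) and 3 lower (Exosc10, Polr1d and Rrp1b), against 8.26% of all listed genes called, 3.89% higher and 4.38% lower. In all, 10 members passed an unadjusted p of 0.05, these 4 included, or 16.9%, beside 21.5% of all listed genes. Utp6, at −0.13 ± 0.041 (limma adjusted p = 0.0502), and Nol4, at −0.27 ± 0.091 (limma adjusted p = 0.0798), lay just outside, as did Polr3gl, at 0.24 ± 0.082 (limma adjusted p = 0.0829). Utp6 and Polr3gl were called with library weights, Utp6 and Nol4 without shControl replicate 2, and Nol4 with only shH4 and shH6 in the fit. The shH6 and shH4 libraries were apart without overlap for 14 members, or 23.7%, beside 24.8% of all listed genes. The median difference was −0.0011, and the standard errors of single genes ran from 0.033 to 0.092. With 3 libraries a group, differences of about that size were not detectable, and larger ones such as those of Nol4 and Polr3gl were not called.

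Among the 10 lower members, shH6 replicate 3, which had the smallest estimated depth, held the lowest of the 9 values for 6. Their median lay −0.33 from the shControl mean in it, against −0.21 and −0.17 in the other shH6 libraries. For the higher members it was unremarkable, at 0.23 above. Without shH6 replicate 3 the shH6 changes of Nop10, Imp3, Polr1d and Gnl3l were −0.17, −0.18, −0.23 and −0.11, and each was still called. The shH6 call of Polr1c, also a lower member, was lost without that library. The part of that library's depth or handling was not tested.

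The longest protein-coding transcripts of the lower members had a median of 1530 bases, from 924 to 4869, and those of the higher members one of 3053, from 1197 to 10012, so the lengths overlapped widely. Over all listed protein-coding genes the lower had a median of 2827 bases and the higher 3586, and the cytosolic ribosomal protein genes one of 954 bases. GC content had a median of 53.1% for the lower and 49.7% for the higher members. Since the study concerns DNA G4 quadruplexes, transcripts were also searched for a quadruplex pattern, 4 runs of 3 or more G with 1 to 7 bases between them, on either strand. It was found in 12 of 59 members (20.3%), in 10 of 49 higher and 2 of 10 lower, and in 40.4% of all listed protein-coding genes. The paper describes the quadruplexes predicted at the strongest RESF1 sites as enriched for those with only 2 guanine tetrads, the layers of a quadruplex. A pattern of runs of 3 or more G does not cover that kind, which was not searched for. A pattern in letters is not a folded quadruplex, and the search used the longest transcript of each gene.

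Promoter windows, 250 bases before to 50 after the start, were available for 49 of the 59 members from RefSeq (GRCm38.p6). The E-box CACGTG, the sequence that MYC and other factors of its class bind and that reads the same on both strands, stood in the windows of 12 of 49 members (24.5%), in 12.0% of listed genes with a window and in 8.09% of all genes in the RefSeq table. Of the 100 genes that the name rule matched, listed or not, 80 had a window and 19 of these (23.75%) held it. Of the higher members 11 of 42 held it, and Polr3gl was the 1 of 7 lower members that did. The match marks letters, not a bound site. In 7 members it lay at or after the start (Mybbp1a, Nle1, Polr3e, Tsr1, Tsr2, Utp20 and Wdr43). Of the 5 members where it lay before the start, Polr3gl was the member that fell most. The others were higher by the mean of both hairpins, Utp14b without a call in shH4. Any link between the motif and the direction of change was not tested. The stretches around these 5 motifs are printed to show their surroundings, on the strand of the gene and with the E-box in capitals. They lie at chr1:34439683-34439738, plus strand for Imp4, chr6:125131798-125131853, plus strand for Nop2, chr11:93885767-93885811, minus strand for Utp18, chr1:78658352-78658407, plus strand for Utp14b and chr3:96594345-96594400, minus strand for Polr3gl. The first base of the motif was at −121, −60, −20, −63 and −194 from the start, in that order, with −1 the base just before it.

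Imp4: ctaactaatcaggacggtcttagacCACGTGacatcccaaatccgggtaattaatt
Nop2: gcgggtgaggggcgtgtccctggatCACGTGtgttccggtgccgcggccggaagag
Utp18: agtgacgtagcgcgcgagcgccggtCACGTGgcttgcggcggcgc
Utp14b: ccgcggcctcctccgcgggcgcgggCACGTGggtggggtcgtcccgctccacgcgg
Polr3gl: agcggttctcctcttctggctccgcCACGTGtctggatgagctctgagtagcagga

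Of other motifs searched on both strands, CCGGAAG, a core bound by ETS factors, was in 34.7% of members with a window and 20.4% of listed genes, and in 46.5% of the cytosolic ribosomal protein genes. Among all genes of the name rule with a window, listed or not, it was in 35%. CCAAT was in 34.7% of members against 44.0% of listed genes, and TATAAA in 4.08% against 8.55%. The NRF1 motif was in none of the 49 and in 2.55% of listed genes. Each motif was counted on its own, whether or not it overlapped another.

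Myc itself was lower in the same libraries, at 10456, 11958 and 12063 normalized counts in the shControl libraries, 8481, 9205 and 9249 in those of shH4, and 8911, 8792 and 10349.8 in those of shH6. Its 6 knockdown values lay under the 3 controls, with a change of −0.35 ± 0.061 under H4 and −0.30 ± 0.061 under H6 (limma adjusted p = 8.04e-05 and 0.000332). The parts of the Myc transgene and of the cells' own Myc gene in these counts were not tested.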

How the data were processed

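The authors aligned the reads with STAR 2.7.8a in Partek Flow and normalized them by the median ratio, with DESeq2 named for their comparisons. The submitters' processing notes name the mm39 build. The gene annotation, the counting tool and whether counting used strand are not given in the sources used here. The deposited table holds a normalized signal per gene, not whole counts, for 9 libraries and 5301 genes. After division by each library's step, 72.3 to 77.3% of values under 150 came out whole within 0.02 reads, too few for a count test. Log2(value + 1) was therefore fitted with limma 3.58.1 (R 4.3.3) over all 5301 genes with 1 mean per group and a variance trend, Benjamini-Hochberg adjustment over the table and calls under 0.05. Replicate pairs differed by a chi-square of 2.40 to 7.47 per gene, so all 9 were kept as separate libraries. Names and lengths came from GENCODE M21, which matched 5258 genes, and promoters from RefSeq (GRCm38.p6). No coordinate of the files was used. The genes named in full were all members of the polymerase, scaffold and snoRNP classes, the extremes of each other class, members lower than shControl and members that differed between hairpins. The members and lists were chosen with earlier results of these data known. P-values measure the spread between dishes. Alternatives changed the pseudocount, filter, scaling, samples, replicate block, weights, variance trend and libraries.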

Additional observations from a re-analysis of the deposited data

Results flagged for a closer look

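For 4 members the change against shControl differed between the hairpins in limma's direct test of shH6 against shH4 over all 5301 genes. Utp14b was higher in shH6 by 0.37 on the log2 scale (limma adjusted p = 0.003), with 521 to 561 normalized counts in shH6 against 392 to 457 in shH4. Exosc10 was lower in shH6 by a log2 difference of −0.20 (limma adjusted p = 0.00344), and Polr1d by −0.20 (limma adjusted p = 0.012). Rrp1b was lower in shH6 by −0.15 (limma adjusted p = 0.0283). The hairpins also differed in how far Resf1 fell, at −0.69 in shH4 and −0.50 in shH6 (limma adjusted p of the difference = 0.00984), and no separate transductions are described for either, so hairpin and transduced population cannot be told apart. No explanation of these differences was tested.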

How the results depend on the processing

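The 16 summaries (counts of calls and medians) and 120 values of single genes were recomputed under 20 alternatives. The direction of change against shControl stayed the same for all 59 members under every scaling. Of the 316 recomputed summaries 305 stayed close to the reported value. Upper quartile scaling took the medians to 0.17 in shH4, 0.17 in shH6 and 0.18 for the mean, by its construction, since it moved the median of all listed genes by −0.061 and −0.052 in shH4 and shH6. The count of members called lower in shH4, 8 as reported, was 4 with column totals and 5 without the trend on the mean, and 4 to 9 when 1 library was left out (4 without shControl replicate 1, 5 without shH4 replicate 2). The count of members that differed between hairpins, 4 as reported, was 2 without the trend (1 lower) and 3 to 6 when 1 library was left out, those lower in shH6 being 2 to 5. Library weights gave 2 higher in shH6. The cause of these moves was not tested. The single gene values gave 51 losses and 17 gains of a call and no reversal.

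The replicate numbers in the labels were used as a replicate block in 1 alternative, which left 56, 57, 59 and 4 members called in shH4, shH6, the mean and the hairpin comparison, the same as without it. The numbers did not pair the libraries, with correlations of same-numbered libraries between −0.15 and 0.11. In the comparison of hairpins, with 3 libraries a group, differences near the standard errors, and some well above them, could not be told from 0. The part of depth in the spread between libraries was not tested.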

Other observations

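Genes that share sequence or position with members were also listed. The processed pseudogenes Mrto4-ps1 and Mrto4-ps2 changed by 0.33 and 0.22 and by 0.53 and 0.56 in shH4 and shH6, the same direction as Mrto4, and reads could be split between the copies. Of the 59 members 18 overlap another protein-coding gene, and for 6 that neighbour was listed, on the opposite strand. Bop1 overlaps Mroh1 (−0.36 and −0.36) and Scx (−0.40 and −0.33), Mybbp1a overlaps Spns2 (−0.46 and −0.29), Heatr1 overlaps Lgals8 (−0.27 and −0.34) and Wdr12 overlaps Carf (−0.21 and −0.28), each neighbour lower where the member was higher. Tsr2 overlaps Fgd1 (0.34 and 0.34) and Rrp8 overlaps Ilk (0.20 and 0.13), which rose with it. The libraries were stranded, but whether counting used strand was not given.

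Of the members 8 hold small nucleolar RNA genes within them, 21 in all, with 5 in Nop56 and 4 in Nop58. None of the 21 was listed. Over the members, the replicates of a group had a median coefficient of variation of 3.30% in shControl, 3.72% in shH4 and 2.86% in shH6, against 3.97, 4.29 and 4.55% over all listed genes, and the highest of a member was 13.4, 10.6 and 11.9%.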
